A study of Mus musculus with 2 samples.

Results

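Scavenger and angiocrine genes of liver sinusoidal endothelial cells were followed through single-cell RNA counts of mouse liver. They were 6 scavenger and uptake receptors (Stab1, Stab2, Mrc1, Lyve1, Fcgr2b and Clec4g) and 4 secreted signals (Bmp2, Bmp6, Wnt2 and Rspo3). The members were taken by symbol from a list, 10 of the 31053 genes in the deposited tables. Their counts were read in barcodes with at least 1 UMI of Ptprb or Kdr, both endothelial receptor genes, called the endothelial gate here, so that no member chose the cells. The tables came from livers of C57BL/6 mice kept for 6.5 weeks on chow or on a diet rich in fructose, fat and cholesterol that produces non-alcoholic steatohepatitis (the NASH diet), with 1 library per diet. Collagenase freed the liver cells, and Percoll steps of 90% and 25%, spun at 100 g and 1000 g, sorted them by density before droplet sequencing of RNA 3' ends. Each UMI (unique molecular identifier) counts 1 captured RNA molecule, and levels are in CPM, UMIs of a gene per 1000000 UMIs of the cells summed. How many mice went into a library is not stated in the labels. Cells are not replicates of a diet, so no test between diets was possible, and every interval below is a 95% interval for counting error only.

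Liver sinusoidal endothelial cells line the hepatic capillaries with a fenestrated wall that lacks a full basement membrane. They are known for clearing waste macromolecules from blood through scavenger receptors, and for sending angiocrine signals to hepatocytes. Bmp2 and Bmp6 act on hepatocyte BMP receptors and drive the iron hormone hepcidin, encoded by Hamp. Wnt2 and Rspo3 come mainly from endothelial cells near the central vein and sustain the pericentral gene programme of hepatocytes, in which R-spondins raise the number of Wnt receptors at the cell surface.

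The DNA just upstream of a gene's start is shown for 4 members, Stab1 and Stab2 as a receptor pair of 1 family, Clec4g as the receptor with the most UMIs in the gate, and Wnt2 as a signal that only some gate cells carried. Sequences are from RefSeq on build GRCm38.p6, each printed 5′ to 3′ on the strand of its gene, and bases inside the GENCODE M21 gene model were left out. Capitals mark matches to AGGAAG or its reverse complement CTTCCT, the core letters of an ETS motif, and overlapping matches were joined. Stab1 covers chr14:31168642-31168891, Stab2 chr10:87008026-87008192, Clec4g chr8:3720652-3720901 and Wnt2 chr6:18030586-18030695, all on the minus strand.
Stab1: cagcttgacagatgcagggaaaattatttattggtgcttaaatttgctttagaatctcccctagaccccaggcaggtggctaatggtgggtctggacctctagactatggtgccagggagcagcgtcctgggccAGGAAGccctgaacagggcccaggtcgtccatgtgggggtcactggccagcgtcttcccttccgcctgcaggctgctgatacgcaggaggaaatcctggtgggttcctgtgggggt
Stab2: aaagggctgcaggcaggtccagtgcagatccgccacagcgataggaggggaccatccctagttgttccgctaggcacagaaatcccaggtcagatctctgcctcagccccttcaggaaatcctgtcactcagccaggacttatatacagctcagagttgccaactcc
Clec4g: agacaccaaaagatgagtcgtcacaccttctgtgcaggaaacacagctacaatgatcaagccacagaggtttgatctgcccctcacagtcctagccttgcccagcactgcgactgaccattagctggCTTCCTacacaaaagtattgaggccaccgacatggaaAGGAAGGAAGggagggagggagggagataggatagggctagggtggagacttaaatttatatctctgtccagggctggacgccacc
Wnt2: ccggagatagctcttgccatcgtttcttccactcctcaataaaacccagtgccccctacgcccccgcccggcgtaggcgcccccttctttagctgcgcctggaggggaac
Windows were found for 7 of the 10 members. Over the 250 bases before the start, the ETS letters stood in 4 of these 7 windows (Stab1, Stab2, Mrc1 and Clec4g) and in 29.5% of all 32851 windows in the table. The Stab2 match lay in the bases left out above. The GATA letters AGATAA or TTATCT stood in 0 of the 7 windows and in 9.99% of all windows, which says only that these letters are not in these windows.

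In the GENCODE M21 annotation of GRCm38, the build the submitters' processing notes name as mm10, the receptor genes lie at chr14:31139013-31168641 (Stab1, minus strand), chr10:86841198-87008025 (Stab2, minus), chr2:14229392-14332057 (Mrc1, plus), chr7:110850607-110863239 (Lyve1, minus), chr1:170958617-170976547 (Fcgr2b, minus) and chr8:3707064-3720651 (Clec4g, minus). The signal genes lie at chr2:133552159-133562885 (Bmp2, plus), chr13:38345107-38500302 (Bmp6, plus), chr6:17988940-18030585 (Wnt2, minus) and chr10:29452416-29535867 (Rspo3, minus). Stab1 overlaps Nt5dc2 and Bmp6 overlaps Txndc5, each on the opposite strand. The labels do not state whether the authors' counting used strand, so reads of such pairs may not be separable.

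The chow library held 71635757 UMIs in 7359 barcodes and the NASH diet library 39440182 UMIs in 5881 barcodes. Barcodes with over 30% mitochondrial UMIs numbered 3033 and 3511, and the filters left 4326 chow and 2369 NASH diet barcodes, with a median mitochondrial share of 12.2% and 22.2%. The libraries shared 69 barcode sequences, 0 of them in the gate. The gate held 48 chow and 49 NASH diet cells, 1.11% (0.819 to 1.47) and 2.07% (1.53 to 2.73) of kept barcodes, with 273830 and 345024 UMIs. The median gate cell held 5308 and 5381 UMIs. The log2 ratio of these shares, NASH diet over chow, was 0.90 (0.29 to 1.50) and moved with the barcode filters. It was 0.55 (0.017 to 1.09) with no mitochondrial limit, 1.67 (0.97 to 2.36) with a limit of 20%, and 0.48 (-0.15 to 1.11), an interval that holds 0, with at least 500 genes and 1000 UMIs per barcode. The Percoll recovery of endothelial cells cannot be told apart from their number in the liver.

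Other endothelial genes were present in the gate of both libraries. All 18 endothelial check genes, among them Pecam1, Cdh5, Dnase1l3 and Oit3, had UMIs in the gate, summing to 17850 CPM on chow and 13837 CPM on the NASH diet. Kupffer cell markers had 3 UMIs in the gate of each library. Hepatocyte markers had 1982 chow and 1869 NASH diet UMIs, 7238 and 5417 CPM, with Apoa2 found in 48 gate cells of each library. Both were limited by construction, because barcodes with at least 2 Kupffer marker UMIs or a high hepatocyte marker share had been put into other classes. Their levels are therefore no check of the label. Markers of fibroblasts and stellate cells were present, with 1313 chow and 1460 NASH diet UMIs over all 8 genes of that list. They sat in few barcodes: 5 chow and 4 NASH diet gate cells held at least 20 such UMIs, and the highest count under that limit was 3 and 13. Leukocyte markers reached 5 UMIs in 2 and 5 gate cells, and biliary markers in 0 and 1. Leaving out all these barcodes gave 41 gate cells per library, called gate cells without other markers below. The limits were chosen after the data had been seen.

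The scavenger receptors stood far higher in the gate than in hepatocytes. Clec4g, a C-type lectin of sinusoidal endothelium, had 745 UMIs in chow gate cells, or 2721 CPM, and 528 in the NASH diet, or 1530 CPM. In hepatocytes it had 14 and 11 UMIs, 0.274 and 0.495 CPM. The log2 ratio of gate over hepatocytes was 13.23 (12.52 to 14.16) in chow and 11.53 (10.74 to 12.60) in the NASH diet. Stab1, the scavenger receptor stabilin-1, had 332 and 264 gate UMIs against 23 and 17 in hepatocytes. Fcgr2b, the inhibitory Fc receptor that takes up immune complexes, had 542 and 503 gate UMIs against 58 and 17. Lyve1, a hyaluronan receptor shared with lymphatic endothelium, had 134 gate UMIs in each library against 5 and 1, and the 5 chow UMIs came from 1 hepatocyte barcode.

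All 10 members lay above a log2 ratio of 1 for gate over hepatocytes in both libraries, with Wnt2 and Rspo3 taken at their lower bounds in chow. The other 8 ran from 10.44 to 13.23 in chow, and all 10 from 7.80 to 12.49 in the NASH diet. Of all genes tested, 54.0% in chow and 50.8% in the NASH diet did so too, so the count itself is not particular to the members. The median over the members was 11.83 with those bounds, 12.05 with the fitted values, and 10.77 in the NASH diet. Summed, the members gave 3010 of 273830 gate UMIs in chow and 165 of 51117262 hepatocyte UMIs, a log2 ratio of 11.73 (11.51 to 11.97). In the NASH diet the sums were 2626 and 155 UMIs and the log2 ratio was 10.09 (9.86 to 10.33). Of the 165 chow and 155 NASH diet hepatocyte UMIs, 20 and 52 lay in hepatocyte barcodes that also held a gate UMI.

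**Figure D1:**
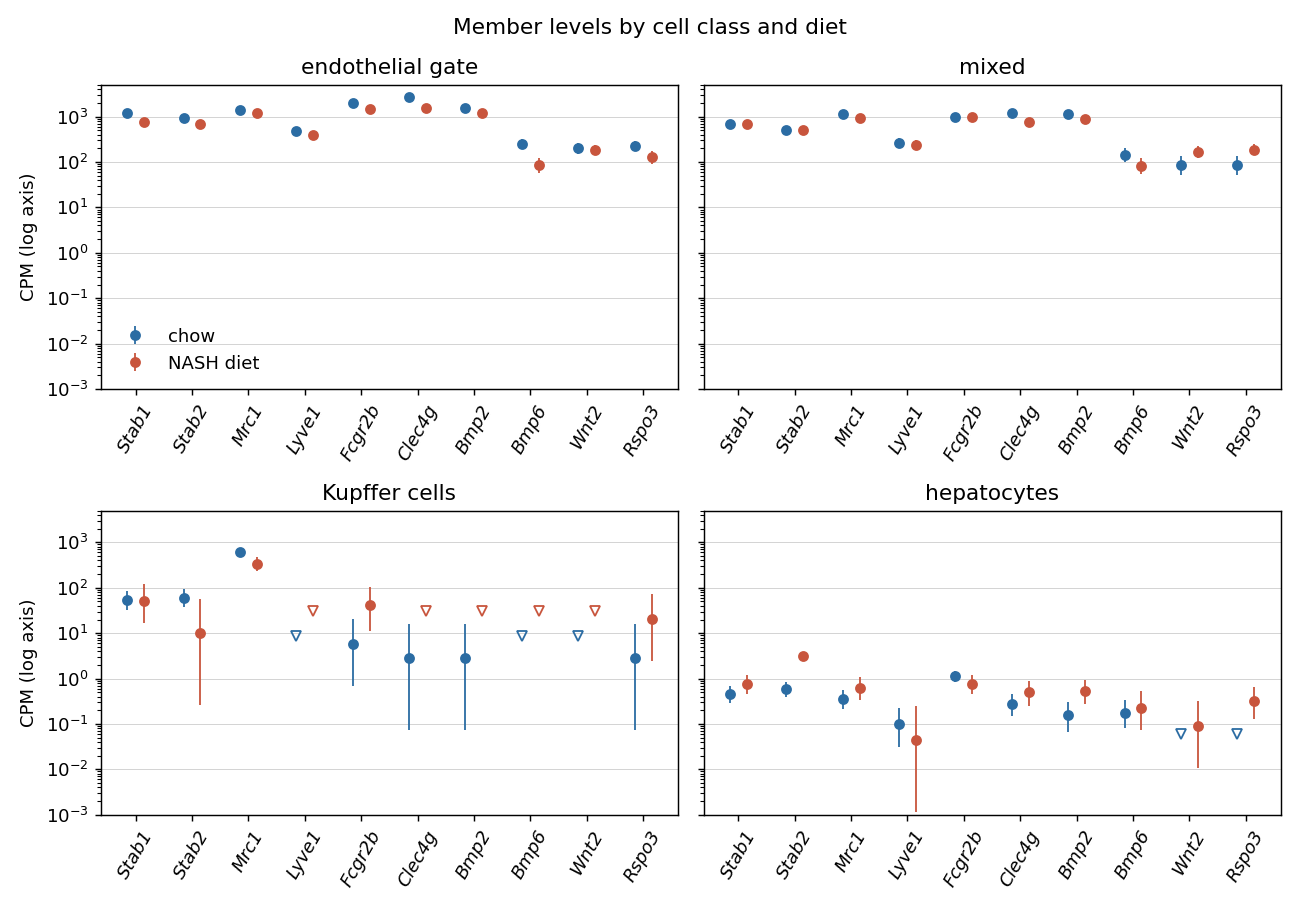
CPM (log axis) of the 10 members in endothelial gate cells, gate barcodes that also held Kupffer cell markers (mixed), Kupffer cells and hepatocytes, for chow (blue) and the NASH diet (red). Points are class sums with 95% Poisson intervals, and open triangles stand at 3 counts for a gene with 0 UMIs. Mrc1 is the member with a high level in Kupffer cells, at 625 CPM in chow.

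Mrc1, the mannose receptor, was the receptor with the smallest gap between the gate and Kupffer cells. Kupffer cells, the resident liver macrophages, held 216 Mrc1 UMIs on chow and 33 on the NASH diet, 625 (544 to 714) and 337 (232 to 473) CPM, and 43 of 52 and 15 of 39 of them had a UMI. Gate cells held 390 and 414 UMIs, 1424 and 1200 CPM, so the log2 ratio of gate over Kupffer cells was 1.19 (0.95 to 1.44) in chow and 1.81 (1.32 to 2.39) in the NASH diet. Stab1 and Stab2 followed in chow, with 19 and 21 Kupffer cell UMIs and log2 ratios of 4.43 (3.80 to 5.21) and 3.92 (3.31 to 4.67). Lyve1, Bmp6 and Wnt2 had 0 UMIs in 52 chow and 39 NASH diet Kupffer cells, which allows up to 6.85% and 9.03% of cells with a UMI. All 10 members were past a log2 ratio of 1 for gate over Kupffer cells in both libraries, beside 24.5% of all genes tested in chow and 36.3% in the NASH diet. Kupffer cells differed in median depth, at 5142 UMIs for chow and 1375 for the NASH diet. Outside these classes, Fcgr2b had 12 and 17 UMIs in leukocytes, and the other 9 members had 0 there.

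The secreted signals were likewise at or near 0 in hepatocytes. Bmp2 had 422 UMIs in chow gate cells, 1541 CPM, against 8 in hepatocytes, and 405 against 12 in the NASH diet. Bmp6, the main inducer of hepcidin in iron loading, had 70 and 29 gate UMIs against 9 and 5. Wnt2 and Rspo3 had 55 and 62 UMIs in chow gate cells and 0 in 1987 chow hepatocytes, which allows up to 0.185% of hepatocytes with a UMI. Set against a floor of 3 counts over the hepatocyte sum, Wnt2 was at least 3422-fold and Rspo3 at least 3858-fold higher in the gate. Wnt2 had 64 NASH diet gate UMIs against 2 in hepatocytes, while Rspo3 had 44 against 7, of which 6 came from 1 hepatocyte barcode that also held a gate UMI. The 7 mesenchymal NASH diet barcodes held 12 UMIs of Rspo3, 5 of Clec4g and 2 of Bmp6, and 0 of the other members.

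Shares of gate cells with a UMI separated common from patchy members. Clec4g was found in 45 of 48 chow and 46 of 49 NASH diet gate cells, 93.8% (82.8 to 98.7) and 93.9% (83.1 to 98.7). In hepatocytes, whose median depth was 25857 and 20682 UMIs, the share with a Clec4g UMI was 0.604% and 0.583%. Bmp2 was found in 41 and 42 gate cells, Lyve1 in 27 and 27, Wnt2 in 21 and 23, and Rspo3 in 8 and 12. A gate cell held a median of 8 members in chow and 7 in the NASH diet. Thinning every gate cell to 1000 UMIs dropped 4 cells of chow and 3 of the NASH diet as too shallow. Then the share with Clec4g was 86.4% and 76.1%, that with Bmp2 70.5% and 63.0%, and that with Stab1 61.4% and 37.0%. UMIs were drawn at random, and the draw itself moved the Stab1 share. In gate cells without other markers, thinned separately, 28 of 37 (chow) and 22 of 38 (NASH diet) kept a Stab1 UMI. The full gate, which contains those cells, had only 27 of 44 and 17 of 46. These thinned shares therefore set no order between diets. Thinned shares of Wnt2, 6.82% and 17.4%, and of Rspo3, 6.82% and 10.9%, rest on 8 cells or fewer and show no order.

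**Figure D2:**
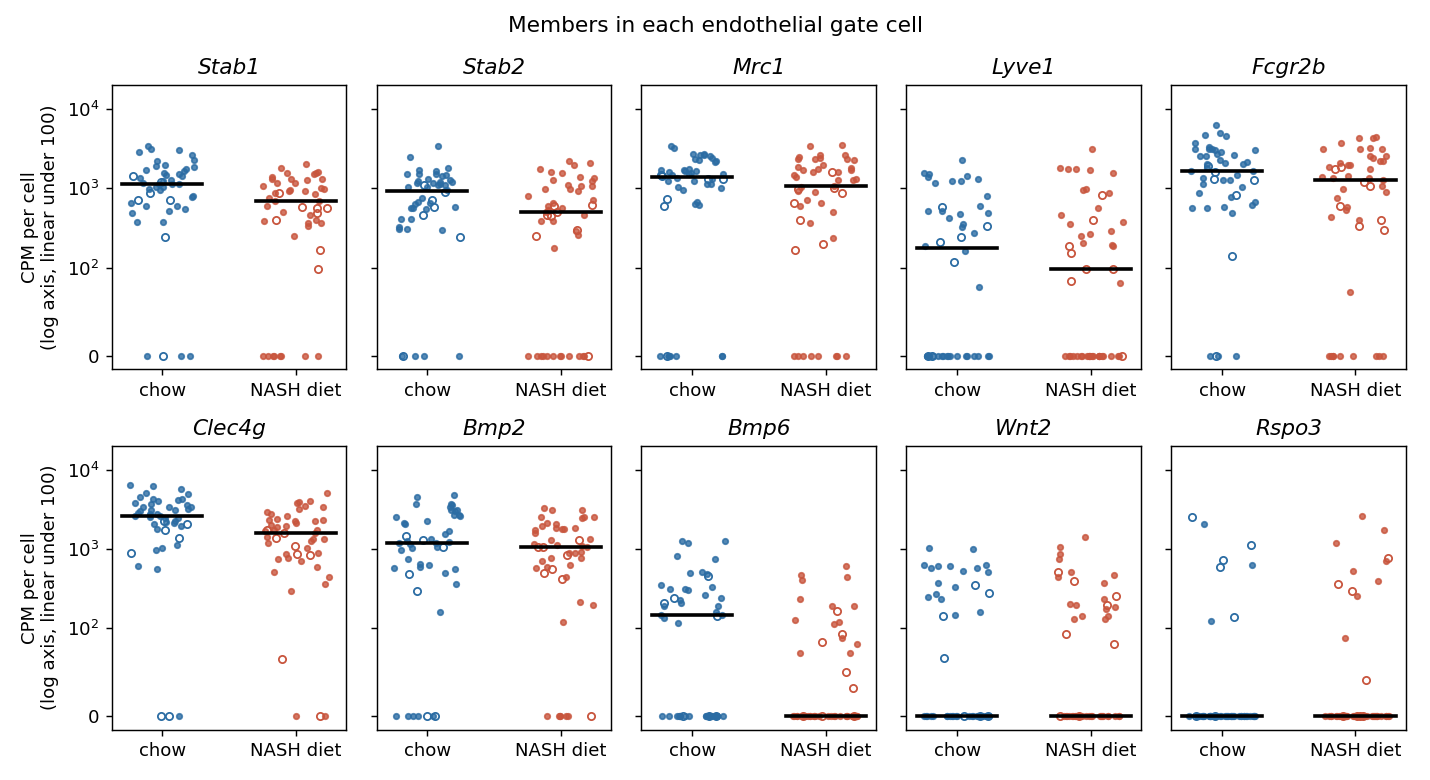
CPM in each endothelial gate cell (log axis, linear under 100) for the 10 members, with 48 chow (blue) and 49 NASH diet (red) cells. Open circles are cells that also hold other cell types' markers, and bars are medians. Bmp6 has a median of 147 CPM in chow and 0 in the NASH diet, with overlapping ranges.

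Between diets, the gate levels of all 10 members were lower in the NASH diet library, by unequal amounts. Clec4g went from 2721 to 1530 CPM, a log2 ratio, NASH diet over chow, of -0.83 (-0.99 to -0.67). Stab1 went from 1212 to 765 CPM, at -0.66 (-0.90 to -0.43). Fcgr2b and Stab2, a second stabilin that clears hyaluronan and glycosaminoglycans, were at -0.44 (-0.62 to -0.26) and -0.43 (-0.69 to -0.17). Mrc1 was at -0.25 (-0.45 to -0.04), and Lyve1 at -0.33 with an interval that held 0 (-0.69 to 0.02). Single cells overlapped widely for every receptor. Stab1 ran from 0 to 3410 CPM in chow cells, with a median of 1136, and from 0 to 1991 in NASH diet cells, with a median of 695.

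Bmp6 differed most, and the Wnt-side signals gave no stable difference. Bmp6 had 70 UMIs in 28 chow cells and 29 in 19 NASH diet cells, 256 (199 to 323) and 84.1 (56.3 to 121) CPM, a log2 ratio of -1.59 (-2.28 to -0.96), or 3.01-fold lower. Bmp2 was at -0.39 (-0.59 to -0.19). Every gate cell with a Bmp6 UMI also had a Bmp2 UMI, 28 in chow and 19 in the NASH diet, while 13 and 23 had Bmp2 alone. Wnt2 had 55 and 64 UMIs and a log2 ratio of -0.12 (-0.66 to 0.43). Rspo3 was at -0.82 (-1.42 to -0.25) over 62 and 44 UMIs, but 49 of the 62 and 26 of the 44 stood in barcodes that also held mesenchymal or other markers. In the 41 gate cells per library without such markers it had 13 and 18 UMIs, and its log2 ratio turned to 0.36 (-0.74 to 1.52).

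Bmp6 was the 1 member of 10 past a log2 ratio of 1 in either direction between diets, beside 5.15% of the 5301 genes tested that were past it downward and 10.9% in either direction. Intervals of 8 members lay below 0, but the share of all genes with such an interval was not computed, so this count has no background. All 10 members were lower, while 48.3% of the 5301 genes tested were higher. The median over the members was -0.44 and over all genes tested -0.02. Ptprb and Kdr, which set the gate, were at -0.07 (-0.22 to 0.08) and 0.02 (-0.16 to 0.20). Summed, the members went from 10992 to 7611 CPM, a log2 ratio of -0.53 (-0.61 to -0.45). Among gate cells without other markers the sum was at -0.44 (-0.53 to -0.36), Bmp6 at -1.51 (-2.33 to -0.79), Clec4g at -0.74 (-0.92 to -0.56) and Mrc1 at -0.13 (-0.35 to 0.10). The direction rests on leaving hepatocyte barcodes out of the gate. With them the gate grew to 72 and 68 barcodes and to 824121 and 629846 UMIs, but to no more than 3026 and 2680 member UMIs, and the sum turned to 0.21 (0.14 to 0.29), with Stab1, Stab2, Mrc1, Lyve1, Fcgr2b, Bmp2, Wnt2 and Rspo3 above 0. Bmp6 was then at -0.82 (-1.50 to -0.20), no longer past a log2 ratio of 1, and Clec4g at -0.090 (-0.25 to 0.072). The gate's median mitochondrial share was 10.0% in chow and 16.4% in the NASH diet, and its part in these ratios was not tested, though over non-mitochondrial UMIs the sum was at -0.47 (-0.55 to -0.40).

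**Figure D3:**
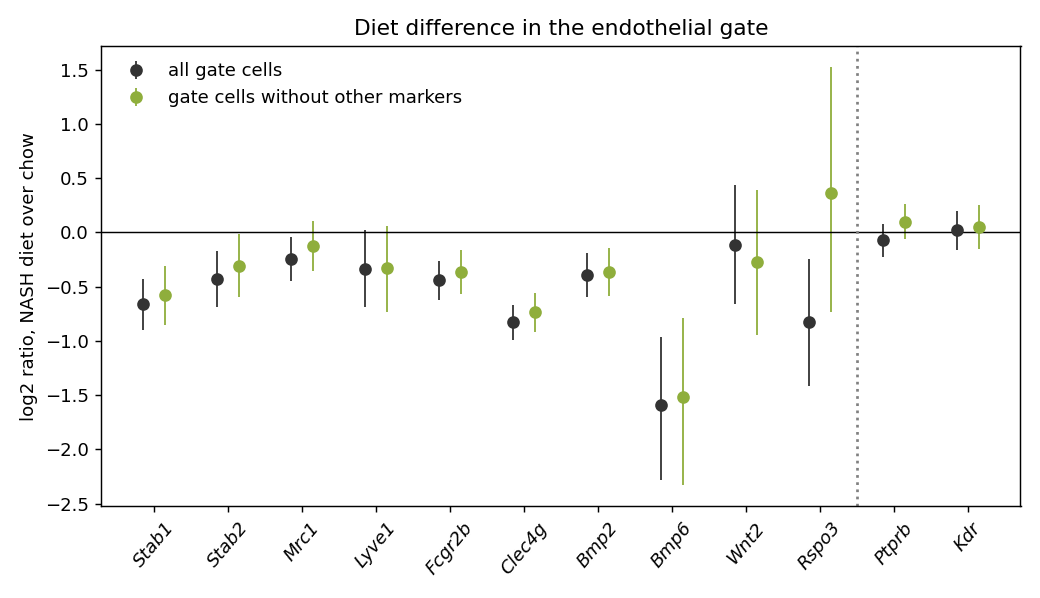
Log2 ratio of CPM, NASH diet over chow, with 95% counting intervals, for the 10 members and the 2 genes that set the gate. Black points are all 48 chow and 49 NASH diet gate cells, and green points the 41 per library without other markers. Bmp6 lies lowest at -1.59, and Rspo3 changes sign between the 2 sets of cells.

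Barcodes with both gate and Kupffer markers, 23 in chow and 18 in the NASH diet, were kept apart as mixed. Of them, 7 and 8 also held at least 20 mesenchymal marker UMIs. Their Clec4g and Bmp2 were lower in the NASH diet, at log2 ratios of -0.64 (-0.91 to -0.38) and -0.39 (-0.65 to -0.13). Stab1, Stab2 and Fcgr2b were at -0.03, 0.01 and -0.02, with intervals that held 0. Wnt2 (19 and 48 UMIs) and Rspo3 (19 and 54 UMIs) were higher there, at 0.90 (0.13 to 1.77) and 1.07 (0.31 to 1.93). Rspo3 was the 1 member past a log2 ratio of 1, beside 12.2% of genes tested past it in either direction.

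Hepatocyte barcodes carried few member UMIs, and Stab2 stood apart among them. It had 30 UMIs in 28 of 1987 chow hepatocytes and 69 in 65 of 1029 NASH diet hepatocytes, 0.587 (0.396 to 0.838) and 3.11 (2.42 to 3.93) CPM. The log2 ratio, NASH diet over chow, was 2.39 (1.77 to 3.07), opposite in sign to the gate. No hepatocyte held over 2 Stab2 UMIs, and 0 chow and 6 NASH diet Stab2 UMIs lay in hepatocyte barcodes with a gate UMI. Counts of Stab2 and Clec4g were 241 and 528 in NASH diet gate cells but 69 and 11 in NASH diet hepatocytes. Of those 11 Clec4g UMIs, 8 lay in hepatocyte barcodes with a gate UMI. Fcgr2b had 58 UMIs in 57 chow hepatocytes and 17 in 9 NASH diet hepatocytes, at -0.54 (-1.44 to 0.23). Of these Fcgr2b UMIs, 4 chow and 12 NASH diet ones lay in hepatocyte barcodes with a gate UMI. Bmp2 had 8 and 12 UMIs, at 1.76 (0.38 to 3.28), with 7 of the 12 in 1 barcode. Of these Bmp2 UMIs, 2 chow and 8 NASH diet ones lay in hepatocyte barcodes with a gate UMI. Of the 6 members with at least 20 UMIs over both hepatocyte sums, Stab2 and Bmp2 were past a log2 ratio of 1, beside 5.37% of 11557 genes tested past it upward. After thinning to 1000 UMIs, 1 hepatocyte per library kept a Stab2 UMI, so the share cannot be compared at equal depth.

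Within the gate, cells with a Wnt2 or Rspo3 UMI carried fewer transcripts of periportal endothelial genes. The periportal list held Efnb2, Dll4, Ltbp4, Msr1, Efnb1, Ntn4, Adgrg6 and Il1a, and the pericentral list held Kit, Thbd, Cdh13, Fabp4, Lhx6 and Selp. In chow, the periportal sum was 850 (711 to 1009) CPM in the 23 cells with a Wnt2 or Rspo3 UMI and 2973 (2672 to 3299) in the 25 cells without. In the NASH diet it was 1257 (1113 to 1414) in 25 cells and 2631 (2354 to 2932) in 24. The pericentral sum was 1694 (1495 to 1912) against 1336 (1137 to 1560) CPM in chow, with overlapping intervals. In the NASH diet it was 2228 (2035 to 2434) against 1364 (1167 to 1585). Fabp4 alone gave 354 of the 491 NASH diet UMIs in cells with a Wnt2 or Rspo3 UMI and 143 of 170 in cells without. Cells with such a UMI were deeper, at a median of 5697 against 4355 UMIs in chow and 7616 against 5154 in the NASH diet, and the part of depth in the split was not tested.

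Over all gate cells, all 8 periportal genes were lower in cells with a Wnt2 or Rspo3 UMI in both libraries. The pericentral genes were less uniform. Ntn4, a netrin, was at 104 CPM in chow cells with a Wnt2 or Rspo3 UMI and 635 in cells without, and at 268 against 698 in the NASH diet. Msr1, a scavenger receptor of class A, was at 77.9 against 551 in chow and 123 against 345 in the NASH diet. Thbd, the anticoagulant thrombomodulin, was at 396 against 284 and at 213 against 88.2. Fabp4, a fatty acid carrier and the pericentral gene with the most UMIs, was slightly lower in chow cells with such a UMI, at 850 (711 to 1009) against 910 (747 to 1098), and higher in the NASH diet, at 1606 (1443 to 1783) against 1147 (967 to 1351). Selp, with 8 and 2 UMIs, and Lhx6, with 5 and 15, had all of them in the cells with a Wnt2 or Rspo3 UMI. These counts are low, and 0 UMIs in the cells without allows up to 30.8 CPM in chow and 29.6 in the NASH diet. Among the members, Stab2 was at 973 (824 to 1142) against 902 (740 to 1089) CPM in chow but at 631 (530 to 745) against 818 (667 to 993) in the NASH diet. Over all gate cells, Clec4g was lower in cells with such a UMI in both, at 2440 (2200 to 2700) against 3082 (2775 to 3413) and at 1370 (1220 to 1534) against 1813 (1584 to 2066). Among gate cells without other markers the periportal sum was 977 against 3151 in chow and 1548 against 2759 in the NASH diet. Single genes moved in this set. NASH diet Efnb2 was higher with such a UMI, at 142 (80.9 to 230) against 125 (66.3 to 213). Il1a was near level there, at 142 against 144. Clec4g was no longer lower in chow, at 3201 (2846 to 3588) against 3160 (2839 to 3508), and was at 1769 against 2060 in the NASH diet. Chow Fabp4 was at 1226 (1011 to 1474) against 979 (804 to 1181).

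**Figure D4:**
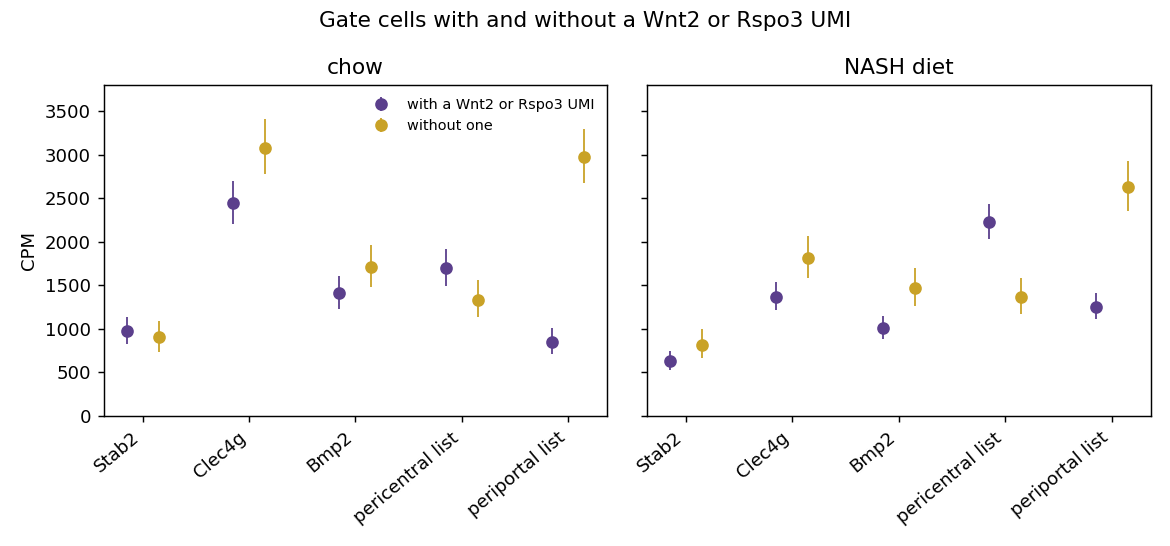
CPM in gate cells with (purple) and without (yellow) a Wnt2 or Rspo3 UMI, in chow (23 and 25 cells) and the NASH diet (25 and 24 cells), with 95% Poisson intervals. The periportal list is lower in purple in both panels, at 850 against 2973 CPM in chow.

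Other endothelial genes of the gate differed less uniformly between diets. Of all 5301 genes tested in the gate, 48.3% were higher in the NASH diet and 10.9% were past a log2 ratio of 1 in either direction. Of 16 uptake genes in the tables, 11 had at least 20 gate UMIs, 4 higher and 7 lower in the NASH diet, with 0 past a log2 ratio of 1 and a median of -0.26. Ehd3, an endocytic recycling gene, was at -0.26 (-0.43 to -0.09), the protease genes Lgmn and Ctsl at -0.48 (-0.74 to -0.21) and 0.32 (0.11 to 0.53), and Lamp2, a lysosomal membrane gene, at 0.06 (-0.20 to 0.32). Of 22 regulators and other angiocrine genes, 16 were tested, 8 higher and 8 lower, with a median of 0.0033. Past a log2 ratio of 1 was 1 gene in each direction (Lmo2 at 1.01 and Hgf at -1.35, named after their values were seen). In gate cells without other markers, 15 of the 22 were tested and 0 were past it in either direction. Over all gate cells, Maf, a transcription factor of sinusoidal identity, had 664 and 815 UMIs and a log2 ratio of -0.04 (-0.19 to 0.11). Klf2, the flow-induced factor, was at 0.42 (0.20 to 0.65), Nr2f2, a venous factor, at 0.58 (0.30 to 0.87) and Meis2 at 0.46 (0.09 to 0.84). Of the 6 pericentral genes, 5 were tested, 3 higher and 2 lower, with 1 past a log2 ratio of 1 in each direction and a median of 0.69. Thbd was at -1.04 (-1.54 to -0.56) and Fabp4 at 0.72 (0.49 to 0.95). Lhx6, named after its value was seen, was at 1.16 over 5 and 15 UMIs, with an interval that held 0 (-0.28 to 3.07). Of these pericentral genes, 4 were tested in gate cells without other markers, 3 higher and 1 lower, with a median of 0.34. There, 1 was past a log2 ratio of 1 upward and 0 downward. Of the 18 endothelial check genes, 14 were lower and 4 higher, with a median of -0.39. Dnase1l3 was at -0.58, Aqp1 at -0.51, Plpp3 at -0.55 and Gpihbp1 at 0.05, so lower levels were also seen in genes outside the members.

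Receptors for these signals were present in hepatocytes. Of 13 BMP receptor and signal genes in the tables, 9 were higher and 4 lower in the NASH diet, beside 60.7% of all 11557 genes tested that were higher. The 1 gene past a log2 ratio of 1, Smad1, was lower, beside 4.25% of genes tested past it downward, and the list's median was 0.20 against 0.10 over all genes tested. Tfr2, an iron sensor that feeds the BMP pathway, was at -0.30 (-0.35 to -0.25), Tmprss6, a protease that restrains it, at 0.27 (0.22 to 0.32), Hfe2, the co-receptor hemojuvelin, at 0.18 (0.08 to 0.29) and Smad1 at -1.12 (-1.30 to -0.95). Of 11 genes on the Wnt and R-spondin receptor list, 8 were higher and 3 lower, with a median of 0.45. The list also held the ubiquitin ligase genes Znrf3 and Rnf43 and the gene Ctnnb1, so its counts are not of receptors alone. Past a log2 ratio of 1 were 2 upward and 0 downward, beside 5.37% and 4.25% of genes tested. The 2 were the Wnt receptors Fzd4 at 1.54 (1.33 to 1.74) and Fzd8 at 1.42 (1.14 to 1.71), named after their values were seen. Among the genes of the list with the most UMIs, the R-spondin receptor Lgr4 was at -0.43 (-0.54 to -0.33), and the Wnt co-receptors Lrp5 and Lrp6 at -0.87 (-1.11 to -0.65) and 0.019 (-0.084 to 0.12), and Ctnnb1, the signal carrier beta-catenin, at -0.17 (-0.24 to -0.10).

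Target genes of the 2 pathways in hepatocytes differed in opposite directions between the libraries. Of 7 BMP target genes, 6 were lower in the NASH diet and 5 of them were past a log2 ratio of 1 downward, beside 4.25% of genes tested. Hamp went from 3921 to 1530 CPM, a log2 ratio of -1.36 (-1.37 to -1.34). The Id genes, which encode dominant-negative helix-loop-helix factors, were at -1.86 (Id1), -1.01 (Id2) and -1.29 (Id3), and the inhibitory Smad6 at 0.47 (-0.03 to 0.94). Of 12 Wnt target genes, 12 were higher and 6 were past a log2 ratio of 1 upward, beside 5.37% of genes tested. Glul, glutamine synthetase of pericentral hepatocytes, went from 268 to 941 CPM, at 1.81 (1.78 to 1.84). Slc1a2, a glutamate transporter, was at 2.33 (2.25 to 2.41), Oat at 1.09, Sp5 at 2.10 (1.62 to 2.61) and Nkd1 at 4.59 (3.13 to 7.13) over 3 and 36 UMIs. The medians of the BMP and Wnt lists were -1.03 and 0.95, and over all genes tested 0.10.

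**Figure D5:**
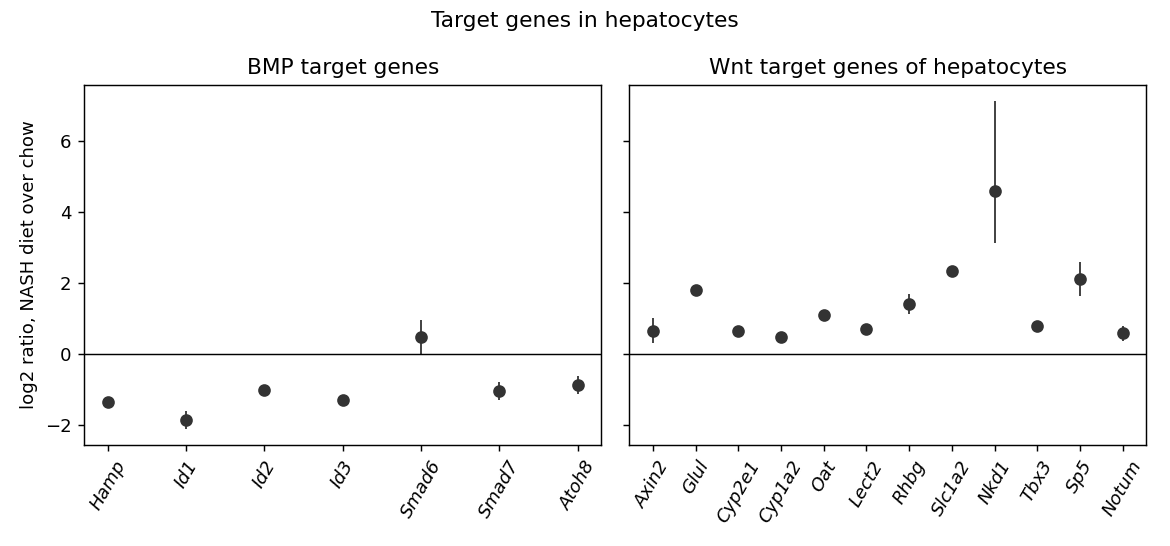
Log2 ratio of CPM in hepatocytes, NASH diet over chow, for 7 BMP target genes and 12 Wnt target genes, with 95% counting intervals, many of them narrower than the point. Smad6 is the 1 BMP target above 0, and all 12 Wnt targets lie above 0.

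Genes with the most similar pattern were sought among 2379 genes with at least 50 gate UMIs, by Pearson r of log2(CPM + 20) over the 18 class and library values. These values share 2 libraries and are mostly near 0 outside the gate and the mixed barcodes, so r is a description. For the summed members the most similar were Kctd10 (r = 0.991), Sgk1 (0.987), Epb41l2 (0.983), Hlx (0.981) and Sema4c (0.980). For single members they were Cdc42ep2 for Stab1, Dnase1l3 for Stab2, Cdh5 for Mrc1, Gpr182 for Lyve1, Arap3 for Fcgr2b, Sema6a for Clec4g, Flt4 for Bmp2, Hecw2 for Bmp6, Adgrl4 for Wnt2 and Emilin1 for Rspo3, and the lowest of these r was 0.984.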

How the data were processed

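Deposited gene-by-barcode matrices of 2 mouse liver libraries held whole-number UMI counts without normalization, and per the file headers Cell Ranger 3.0.2 made them, while the submitters' processing notes name Cell Ranger 3.1.0, mm10 and Seurat. The kit was 10x 3' version 3 per the labels. Each library's own matrix was used, and the deposited merged matrix (chow part 86.4% of that library's own UMIs) was an alternative. No column stayed without a sample. Gene and barcode names were read as text (other) as deposited by the authors.

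Barcodes were kept with at least 200 genes, 500 UMIs and at most 30% mitochondrial UMIs. Hepatocyte RNA barcodes, called first, had a hepatocyte-list share of at least 0.5 of the library's reference (9.05% in chow, 13.1% in the NASH diet, the median over barcodes of at least 10000 UMIs), and hepatocytes at least 5000 UMIs. The remaining classes followed the endothelial gate in the order mixed, Kupffer, mesenchymal, leukocyte and biliary, each by at least 2 marker UMIs. Levels are CPM of summed counts. Ratios added 0.5 UMI to each sum and carry conditional binomial intervals, counts exact Poisson and shares Clopper-Pearson intervals at 95%. Genes with at least 20 UMIs over both sums were tested against a log2 ratio of 1, which is a size rule and not a significance test. Scrublet (scanpy 1.11.5) called 0 doublets in both libraries, so its threshold did not work and no barcode was removed by it. As an alternative, the 433 and 277 barcodes with the highest scores were removed.

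The members and gene lists were chosen with earlier results of these data known. Named genes were all 10 members, up to 4 genes per list with the most UMIs, and list genes past a log2 ratio of 2. Other list genes are named for their place in a list. Ratio code was tested on simulated data. Python 3.11.15, numpy 2.4.6, scipy 1.17.1, pandas 2.3.3 and matplotlib 3.10.9 were used.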

Additional observations from a re-analysis of the deposited data

Results flagged for a closer look

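Stab2 and Bmp2 had diet ratios of opposite sign in hepatocytes and in the endothelial gate, and the difference was not tested. Stab2 was at a log2 ratio, NASH diet over chow, of 2.39 in hepatocytes (30 and 69 UMIs) and -0.43 in the gate. Bmp2 was at 1.76 in hepatocytes (8 and 12 UMIs, 7 of the 12 in 1 barcode) and -0.39 in the gate. Of those 8 chow and 12 NASH diet hepatocyte UMIs, 2 and 8 lay in barcodes with a gate UMI. Rspo3 was at 1.07 in the mixed barcodes (19 and 54 UMIs) and -0.82 in the gate, also untested, and its gate value changed sign without the barcodes that held other markers.

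Gate barcodes over the mitochondrial limit also carried members. The 5 chow and 24 NASH diet barcodes held 128 and 188 member UMIs, with a median mitochondrial share of 51.7% and 52.0%. Over non-mitochondrial UMIs this was 17905 CPM in chow and 7721 CPM in the NASH diet.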

How the results depend on the processing

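No paired analysis was possible because each diet had 1 library and the labels give no replicate numbers. Over 13 alternatives, the summed members' gate ratio between diets kept its sign in 12, from -0.63 upward. It was 0.21 with hepatocyte barcodes kept in the gate, where the denominators grew by construction, and -0.63 with no mitochondrial limit, -0.43 with mixed barcodes kept and -0.44 without barcodes holding other markers. With hepatocyte barcodes kept, the single ratios were 0.080 for Stab1, 0.31 for Stab2, 0.48 for Mrc1, 0.39 for Lyve1, 0.31 for Fcgr2b, 0.35 for Bmp2, 0.60 for Wnt2 and 0.080 for Rspo3, with Clec4g at -0.090 and Bmp6 at -0.82, which no longer passed a log2 ratio of 1. Rspo3 was also at 0.14 as a mean over cells and at 0.36 without barcodes holding other markers.

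Gate over hepatocytes kept its sign throughout. In chow it was 10.32 with hepatocyte barcodes kept in the gate, 11.03 with 0.25 of the reference share and 11.43 with mixed barcodes kept. In the NASH diet it was 9.82, 9.74, 10.60 with a mitochondrial limit of 20% and 10.35 without barcodes holding other markers, the first 2 in the same order as in chow. The gate's share between diets was 1.67 with that limit of 20%, 0.55 with no mitochondrial limit and 0.48, with an interval that held 0, with at least 500 genes and 1000 UMIs. The causes were not tested beyond the denominators named. Removal of the highest Scrublet scores took 0 gate barcodes, so it changed no member value in the gate. The limits of 20 mesenchymal, 5 leukocyte or 5 biliary UMIs and of 2000 UMIs per gate barcode were chosen after the data had been seen. Bmp6, Wnt2 and Rspo3 rest on 29 to 70 UMIs per library in the gate, which limits their precision.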
